A study of Homo sapiens with 2 samples.

Results

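The noncoding snoRNA host genes GAS5, SNHG5, SNHG7, SNHG8 and SNHG12 were described in HT-29 cells, a human colon adenocarcinoma line, with and without knockdown of the adhesion receptor GPR126. They were taken as every row of the deposited table whose symbol is GAS5 or begins with SNHG, which gave 5 of 2007 genes. The scramble group was 1 library of HT-29 cells carrying a scramble control, and the knockdown group was 1 library of HT-29 cells in which RNA interference targeted GPR126. The sources used here do not give the hairpin, the number of cultures or clones or the time after knockdown. The table holds genes that the authors called as differing, with an absolute log2 ratio of at least 1 and an FDR under 0.001, so a member could enter it only by differing about 2-fold in 1 direction.

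A snoRNA host gene is transcribed and spliced like a messenger RNA, and its product lies mainly in its introns. Each excised intron can be trimmed to a small nucleolar RNA (snoRNA), which guides a chemical modification of ribosomal or spliceosomal RNA: box C/D snoRNAs (SNORD) guide ribose methylation and box H/ACA snoRNAs (SNORA) guide pseudouridylation. The spliced exons carry no long conserved reading frame. In several hosts, GAS5 being the best known, they begin with a terminal oligopyrimidine (TOP) tract, associate with ribosomes and are broken down by nonsense-mediated decay (NMD), so that host RNA is known to accumulate when translation or NMD is inhibited. GAS5 takes its name from growth arrest-specific transcript 5.

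By RefSeq positions, GAS5 held 11 snoRNAs within its span, 10 of them SNORD and 1 SNORA. SNHG5 held SNORD50A and SNORD50B, SNHG8 held SNORA24, and SNHG12 held SNORD99, SNORA61, SNORA44 and SNORA16A. SNHG7 held SNORA17A and SNORA17B and no SNORD. The next lines give 1 cargo RNA each of 4 hosts as examples of the 2 families, as DNA letters from GENCODE v29 on GRCh38. Capitals mark TGATGA (box C) and CTGA (box D) in SNORD50B, and the ACA that stands 3 bases before the end in the H/ACA snoRNAs.
SNORD50B (host SNHG5, chr6:85677589-85677658, minus strand): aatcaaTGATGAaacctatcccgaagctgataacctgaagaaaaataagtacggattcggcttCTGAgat
SNORA24 (host SNHG8, chr4:118279190-118279320, plus strand): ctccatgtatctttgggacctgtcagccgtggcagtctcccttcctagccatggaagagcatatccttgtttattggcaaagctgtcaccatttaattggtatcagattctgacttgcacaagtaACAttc
SNORA61 (host SNHG12, chr1:28579764-28579893, minus strand): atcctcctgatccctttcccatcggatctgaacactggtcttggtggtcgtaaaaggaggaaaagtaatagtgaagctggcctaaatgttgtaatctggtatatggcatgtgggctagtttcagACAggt
SNORA17A (host SNHG7, chr9:136726747-136726879, minus strand): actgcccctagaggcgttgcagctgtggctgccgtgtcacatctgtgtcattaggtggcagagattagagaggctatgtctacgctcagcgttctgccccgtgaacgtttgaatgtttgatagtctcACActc
Among 955 snoRNA transcripts of GENCODE v29, 20.8% held both TGATGA within the first 10 bases and CTGA within the last 12, and 29.4% held ACA 3 bases before the end. They were chosen among 8 cargo sequences for holding the marked letters; SNORD99 has no TGATGA within its first 10 bases, and SNORA44 and SNORA17B have no ACA 3 bases before the end of the annotated transcript. Among host transcripts that are not of the retained-intron class, SNORD50B lay in an intron of 19 of 19 SNHG5 transcripts, SNORA61 in an intron of 7 of 7 SNHG12 transcripts and SNORA24 in an intron of 4 of 5 SNHG8 transcripts. SNORA17A lay in an intron of 2 of 4 SNHG7 transcripts and touched an exon of 1.

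The start regions of the hosts are shown because several hosts are known to begin with a TOP tract. The lines run from 80 bases before to 50 bases after the RefSeq start on GRCh38.p14, on the gene's strand. Capitals mark TATAA and a run of pyrimidines (C or T) that begins with C, has at least 4 more pyrimidines and starts within 10 bases of the annotated start.
SNHG5 (chr6:85678684-85678813, minus strand): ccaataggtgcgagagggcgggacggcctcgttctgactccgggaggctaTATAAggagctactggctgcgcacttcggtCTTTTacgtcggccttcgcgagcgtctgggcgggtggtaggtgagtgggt
SNHG7 (chr9:136728135-136728264, minus strand): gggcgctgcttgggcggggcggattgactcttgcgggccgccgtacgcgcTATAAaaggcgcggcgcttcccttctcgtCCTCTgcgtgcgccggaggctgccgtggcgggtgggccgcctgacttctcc
SNHG8 (chr4:118278682-118278811, plus strand): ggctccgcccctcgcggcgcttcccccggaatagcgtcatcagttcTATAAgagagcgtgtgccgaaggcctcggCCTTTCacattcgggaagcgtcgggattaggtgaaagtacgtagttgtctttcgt
SNHG12 (chr1:28581824-28581953, minus strand): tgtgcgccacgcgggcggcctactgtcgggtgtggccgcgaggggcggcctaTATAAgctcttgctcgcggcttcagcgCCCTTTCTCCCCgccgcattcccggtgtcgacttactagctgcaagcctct
TATAA began 28 to 34 bases before the start in these 4 hosts, against 3.91% of 35116 RefSeq promoter windows with TATAA on the gene's strand 40 to 20 bases before the start. The pyrimidine run was found in the same 4 and in 31.4% of windows. C exactly at the annotated start followed by at least 4 pyrimidines was found in 4.07% of windows. SNHG5 held it, and so did SNHG12, whose run begins before the start. Neither feature was found in the GAS5 window. That window ends at position 173868996 and does not reach the commonest GENCODE v29 start of GAS5, at 173867989. The RefSeq start is not the commonest one in GENCODE v29 for GAS5, SNHG8 and SNHG12. At its commonest start (2 of 5 transcripts) SNHG8 opens with ggaatagcg, without opening pyrimidines, and TATAA lies after the start. At its own (2 of 17) SNHG12 opens with CCggtgtcg, which is not such a run. For GAS5, 6 of 29 GENCODE v29 transcripts began with the same base. Their first 30 bases, with the opening pyrimidines in capitals, are given next.
GAS5 (chr1:173867960-173867989, minus strand): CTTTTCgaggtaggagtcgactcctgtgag
SNHG7 was lower in the knockdown library unless the median listed ratio was set to 0, and only slightly so with the trimmed mean. In the RefSeq windows it carried TATAA and the pyrimidine run like the 3 SNHG genes that were higher. Both strands of the whole window of 300 bases were also searched. The E-box CACGTG was present in SNHG7 alone of the 5 and in 7.26% of all windows. The stress-response letters TGATGNAA were present in none of the 5 and in 3.62%. The GAS5 window does not hold its commonest GENCODE v29 start, so the letters near that start were not searched.

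The authors' normalised values imply totals of 5753320 reads for scramble and 6010192 for knockdown. GPR126 had 68 and 2 reads. Every difference below is between 1 library and 1 library and has no replicate check. Intervals are exact 95% Clopper-Pearson intervals for counting error alone, and reads from amplified libraries are not independent molecules. In bulk RNA, fewer cells of a kind and less RNA per cell cannot be told apart. None of the 13 colon epithelial markers, 4 leukocyte markers and 3 endothelial markers was listed, so the labelled cell type could not be checked from this table; of 4 fibroblast markers COL1A1 was listed, with 83 and 227 reads, and its part in the results was not tested.

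GAS5, SNHG5, SNHG8 and SNHG12 were higher in the knockdown library, and SNHG7 was lower unless the libraries were scaled to the median listed ratio. With the trimmed mean of the listed genes (TMM) as the scale, SNHG7 was only slightly lower. All 5 passed 2-fold, as entry to the table nearly required; of the 2007 listed genes, 33.2% were higher by 2-fold or more and 66.7% lower by as much. The median log2 ratio of the 5, knockdown over scramble with 0.5 reads added to each count, was 1.13, and that of all listed genes was -1.16. The members' reads summed to 5332 in the scramble library and 11835 in the knockdown library, or 0.0927% and 0.197% of all reads.

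GAS5 (Entrez 60674), host of the largest snoRNA set here, had 4404 reads in the scramble library and 10007 in the knockdown library. In reads per 1000000 library reads (RPM), a unit with no gene length in it, these were 765 and 1665. The knockdown value was 2.18-fold higher (2.10 to 2.25). With 14411 reads in both libraries together, GAS5 had the narrowest interval of the members.

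SNHG12 (Entrez 85028), whose introns carry both snoRNA families, had 522 and 1281 reads, or 90.7 and 213 RPM. It was 2.35-fold higher in the knockdown library (2.12 to 2.61). SNHG5 (Entrez 387066), host of the SNORD50 pair, had 130 and 297 reads, or 22.6 and 49.4 RPM. It was 2.19-fold higher (1.77 to 2.71), an interval that reaches below 2-fold.

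SNHG8 (Entrez 100093630), the host of SNORA24, had the fewest reads of the members in the scramble library. It had 35 scramble and 134 knockdown reads, or 6.08 and 22.3 RPM. It was 3.66-fold higher (2.51 to 5.48), the highest ratio of the 5 and the one with the widest interval.

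SNHG7 (Entrez 84973), the host of the SNORA17 pair, had 241 scramble and 116 knockdown reads, or 41.9 and 19.3 RPM. It was 2.17-fold lower in the knockdown library (1.73 to 2.73), with a log2 ratio of -1.11 that became 0.045 when the median ratio of the listed genes was set to 0. SNHG7 was thus as low as the typical listed gene, whereas the log2 ratios of the other 4 stood between 2.28 and 3.02 above that median. With the trimmed mean (TMM) as the scale, the log2 ratio of SNHG7 was -0.058.

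**Figure D1:**
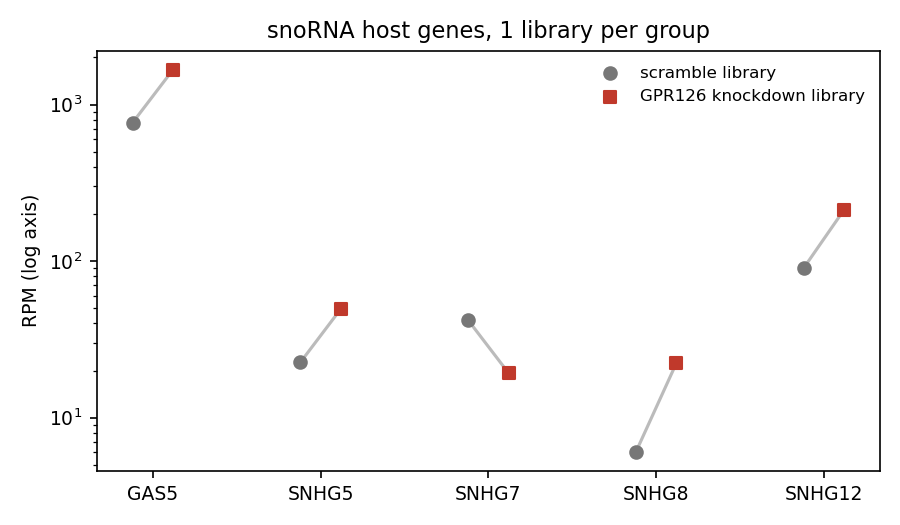
Reads per 1000000 library reads (RPM, log axis) of the 5 snoRNA host genes in the scramble library (grey circles) and the GPR126 knockdown library (red squares), 1 library each, with a line joining the values of a gene. GAS5, SNHG5, SNHG8 and SNHG12 are higher in the knockdown library, SNHG8 going from 6.08 to 22.3 RPM, and SNHG7 is lower, from 41.9 to 19.3 RPM.

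For GAS5, SNHG8 and SNHG12 the whole counting interval lay above 2-fold, as it did for 16.4% of listed genes. For SNHG7 it did not lie wholly beyond 2-fold; it did so on the lower side for 33.1% of listed genes. Among listed genes with a summed count within 2-fold of the member's own, 18.2% of 22 genes were higher in the knockdown for GAS5, 25.1% of 765 for SNHG5, 36.6% of 878 for SNHG8 and 20.6% of 286 for SNHG12. Listed genes of like abundance were therefore mostly lower, while these 4 hosts were higher. For SNHG7, 27.1% of 798 genes of like abundance were higher.

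Ratios between members within a library need no scaling of the libraries. There were 33.9 GAS5 reads for each SNHG5 read in the scramble library and 33.7 in the knockdown library, a change of 0.995 times (0.801 to 1.23). GAS5 per SNHG12 read went from 8.44 to 7.81, a change of 0.926 times (0.830 to 1.03). GAS5, SNHG5 and SNHG12 thus kept their proportions within counting error. All had folds not far above the 2-fold limit for entry, and genes near that limit keep like proportions by that alone.

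Both other hosts departed from these proportions, in opposite directions. There were 126 GAS5 reads for each SNHG8 read in the scramble library and 74.7 in the knockdown library, a change of 0.594 times (0.396 to 0.868). There were 18.3 GAS5 reads for each SNHG7 read in the scramble library and 86.3 in the knockdown library, a change of 4.72 times (3.76 to 5.96). Entry to the table required about a 2-fold difference. A large change between any higher and any lower listed gene therefore followed from their directions alone. SNHG7 took 4.52% of the members' reads in the scramble library (3.98 to 5.11) and 0.980% in the knockdown library (0.811 to 1.17).

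Genes on the other strand overlap 3 of the members. In GENCODE v29, SNHG12 overlaps TRNAU1AP, SNHG7 overlaps FAM69B, and GAS5 overlaps GAS5-AS1 and ZBTB37, each on the opposite strand, and none of these 4 partners is in the table. The sources do not say whether the counting used strand, so reads of a host and of its partner cannot be told apart. SNHG5 and SNHG8 had no such partner. Nor do they say whether reads in introns, where the snoRNAs lie, were counted.

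Hosts outside the symbol rule were compared through a list of 20 further noncoding snoRNA hosts, matched by Entrez number. Of these, 2 were listed under older symbols and both were higher. ZFAS1, host of the SNORD12 group and listed as NCRNA00275, had 1824 and 4093 reads and was 2.15-fold higher (2.03 to 2.27). C6orf48, now SNHG32 and host of SNORD48 and SNORD52, had 644 and 2186 reads and was 3.25-fold higher (2.97 to 3.55). The other 18 hosts were not listed, so no direction or size can be given for them. Thus 6 of the 7 listed noncoding hosts were higher, and SNHG7 was the exception with library totals as the scale. Of all listed genes 33.3% were higher, but of the 19 listed lncRNAs outside these 7 hosts 16 were, a share like that of the hosts.

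**Figure D2:**
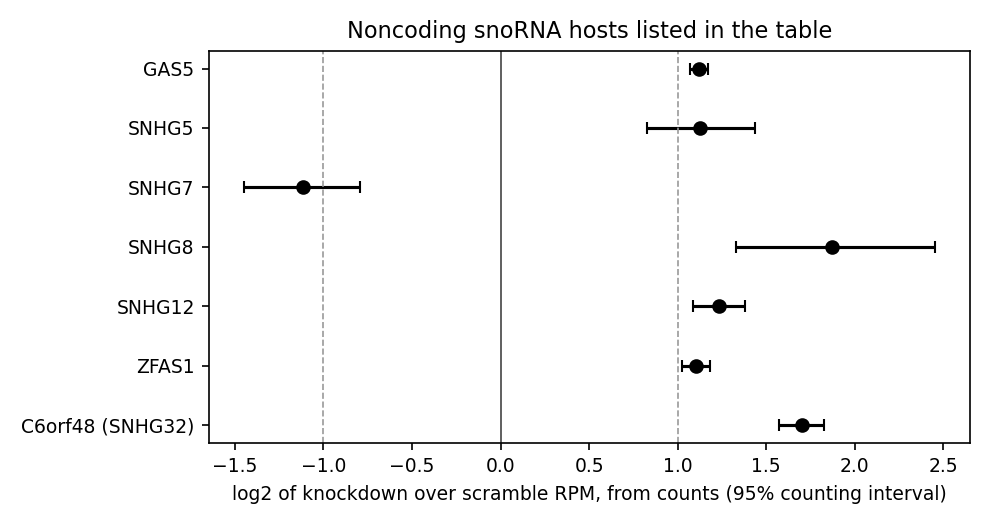
Log2 of the knockdown over scramble RPM, computed from the counts, for the 7 noncoding snoRNA hosts in the table; bars are 95% counting intervals, dashed lines mark 2-fold, and each group is 1 library. ZFAS1 (2.15-fold) lies beside GAS5 (2.18-fold) and SNHG5 (2.19-fold), C6orf48 (3.25-fold) beside SNHG8 (3.66-fold), and SNHG7 alone is to the left of 0, which it is not when the median listed ratio is set to 0.

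Many snoRNAs lie within protein-coding genes, and these were divided about as the table as a whole was. Here snoRNAs were genes with symbols beginning SNORD, SNORA or SCARNA, without those that GENCODE v29 places on the other strand. Of 243 protein-coding genes whose RefSeq span holds such a snoRNA, 36 were listed, 8 higher and 28 lower. Their median log2 ratio was -1.20 beside -1.16 for all listed genes, of which 66.7% were lower. The RefSeq table gives no strand: for 19 of the 36, GENCODE v29 places a snoRNA on the gene's strand (5 higher, 14 lower), and the other 17 were taken by span alone (3 higher, 14 lower). With the median ratio set to 0, 9 of the 28 changed sign, and with the trimmed mean 3 did. Among the most abundant were the chaperone HSPA8 with 3 SNORD14 genes (2.80-fold lower, 2.71 to 2.89), nucleolin, NCL (2.46-fold lower, 2.36 to 2.56), and the chaperonin subunit TCP1 (2.62-fold lower, 2.50 to 2.76).

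The lowest ratios among protein-coding hosts belonged to NOL11, a nucleolar factor of ribosomal RNA transcription (4.47-fold lower, 3.09 to 6.62), the fatty acid synthase FASN (3.40-fold), PPP1R8 (3.30-fold) and the phosphatase PHLPP2 (3.22-fold). The highest were SEC14L1, with 74 and 447 reads (5.78-fold higher, 4.51 to 7.50), CCNB1IP1, with 6 and 28 reads (4.47-fold), OSCP1, with 7 and 30 reads (4.10-fold), and the glycosyltransferase EXT1 (2.23-fold). PPP1R8 and SEC14L1 were taken as hosts through a SCARNA gene alone. A host's own messenger RNA and the intron's snoRNA are separate products, and the table gives 1 count per host gene.

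RNAs encoding the proteins that package snoRNAs were lower where listed. Of 8 core snoRNP genes 5 were listed and all 5 were lower, as were 66.7% of all listed genes. For box H/ACA these were NHP2, with 933 and 269 reads (3.62-fold lower, 3.16 to 4.17), GAR1 (2.69-fold, 2.07 to 3.51) and NOP10 (2.21-fold, 1.96 to 2.50). For box C/D they were the methyltransferase fibrillarin, FBL, with 1392 and 547 reads (2.66-fold lower, 2.41 to 2.94), and NOP58 (2.19-fold, 1.97 to 2.44), which is itself a snoRNA host. The list's median log2 ratio was -1.41, beside -1.16 for all listed genes, and NOP10 and NOP58 changed sign when the latter was set to 0.

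The snoRNP assembly list of 17 genes had 5 in the table, each lower, as were 66.7% of all listed genes. Their median log2 ratio was -1.44, beside -1.16 for the whole table. HSP90AA1, whose protein works with the R2TP assembly complex, was 7.71-fold lower (7.36 to 8.08). SHQ1, a chaperone of the pseudouridine synthase dyskerin, had 108 and 23 reads (4.91-fold lower, 3.11 to 8.07). NOLC1, a nucleolar partner of snoRNPs, was 2.72-fold lower (2.47 to 3.01). The R2TP ATPase RUVBL1 (2.19-fold, 1.83 to 2.63) and the cap methyltransferase TGS1 (2.13-fold, 1.63 to 2.78) were nearer to 2-fold and changed sign when the median listed ratio was set to 0.

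NMD is a known route of decay for the spliced RNA of several hosts. Of 33 NMD and RNA decay factors 4 were listed, all lower, as were 66.7% of all listed genes. EIF4A3, the core helicase of the exon junction complex, had 2104 and 687 reads (3.20-fold lower, 2.93 to 3.49). SMG5, which acts on phosphorylated UPF1, was 2.80-fold lower (2.11 to 3.75), and the adaptor UPF2 2.43-fold lower (1.89 to 3.16). The decapping factor DCP1A was 2.09-fold lower (1.62 to 2.70) and changed sign with the median listed ratio set to 0. The median log2 ratio of the 4 was -1.38, beside -1.16 for the whole table, and the other 29, UPF1 among them, were not listed.

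**Figure D3:**
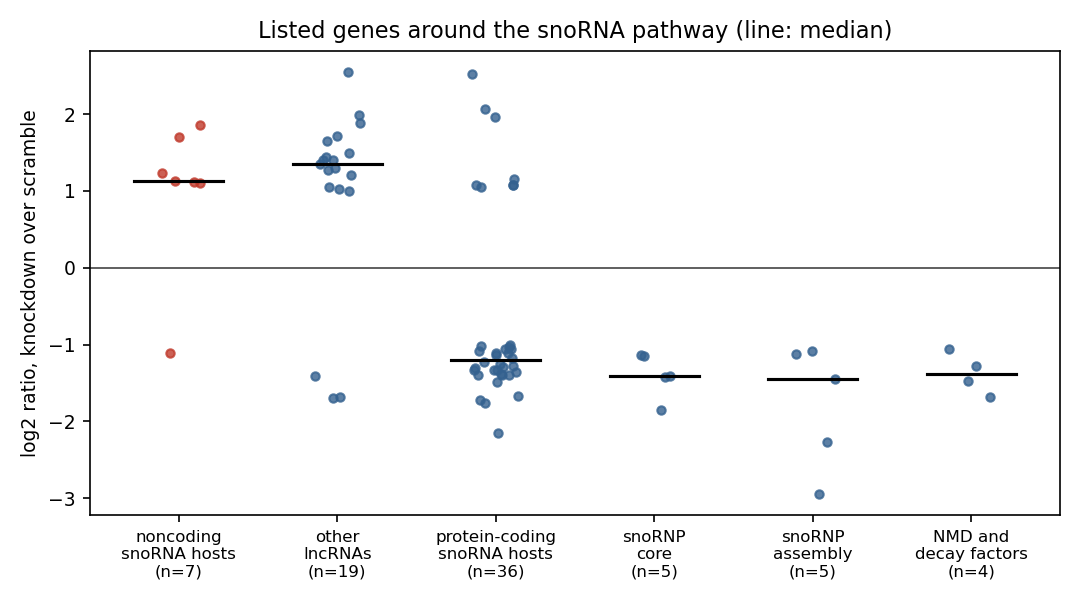
Log2 ratio (knockdown over scramble, 0.5 reads added, scaled to library totals) of listed genes in 6 groups; each point is a gene, n is the number of listed genes, lines are medians, and points are spread sideways for visibility. Medians are 1.13 for the 7 noncoding hosts, 1.36 for the 19 other lncRNAs and -1.20, -1.41, -1.44 and -1.38 for protein-coding hosts, snoRNP core, snoRNP assembly and decay factors, beside -1.16 for all listed genes.

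Genes with RNAs known to be stabilised when NMD is inhibited were divided. Of 25 such genes, GAS5 included, 15 were listed, 11 higher and 4 lower, with a median log2 ratio of 1.16; of all listed genes 33.3% were higher. The 4 lower ones all encode splicing regulators and carry poison exons. They were SRSF3, SRSF7 and SRSF2, between 3.85-fold and 4.66-fold lower, and TRA2B, 3.06-fold lower (2.70 to 3.48). Counts are per gene, so their RNAs with and without the poison exon cannot be told apart. The other 11 were higher. ATF4, the most abundant of them after GAS5, was 2.28-fold higher (2.14 to 2.44), close to GAS5, and UPP1, ATF3, DDIT3 and ASNS had the largest ratios, between 5.70-fold and 15.3-fold. These stress genes are also induced through transcription, and the table cannot separate synthesis from decay.

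TOP messenger RNAs, which share the tract at their start with hosts such as GAS5, were also divided. Of 120 genes in the list 14 were listed, 7 higher and 7 lower, where 33.3% of all listed genes were higher. RPL26 (2.68-fold), RPS18 (2.46-fold) and the elongation factor EEF1A1 (2.07-fold) were among the higher, and FAU (2.36-fold, 2.20 to 2.53), RPL22 (2.22-fold) and EIF2A (2.22-fold) among the lower. RPL22 and EIF2A were among 5 of the 7 lower genes that changed sign with the median listed ratio set to 0. Several of these genes have processed pseudogenes, and the treatment of reads that match both is unknown here.

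The listed genes nearest to each host, among those reaching 100 reads in 1 library with a summed count within 2-fold, were named by the difference in log2 ratio over the 2 libraries. Nearest to GAS5 was the ribosomal protein gene RPL9, with 4635 and 10296 reads and a difference in log2 ratio of -0.033. GRB7, an adaptor of receptor tyrosine kinases, had the same 35 and 134 reads as SNHG8, followed by AVPI1. KLK10 and CTNND1 were nearest to SNHG12, RHPN2 and ULBP2 to SNHG5, and ITGAE and POP1 to SNHG7. With 1 ratio per gene, such likeness is shared by many genes: 543 listed genes had a larger log2 ratio than GAS5 and 198 a larger one than SNHG8.

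**Figure D4:**
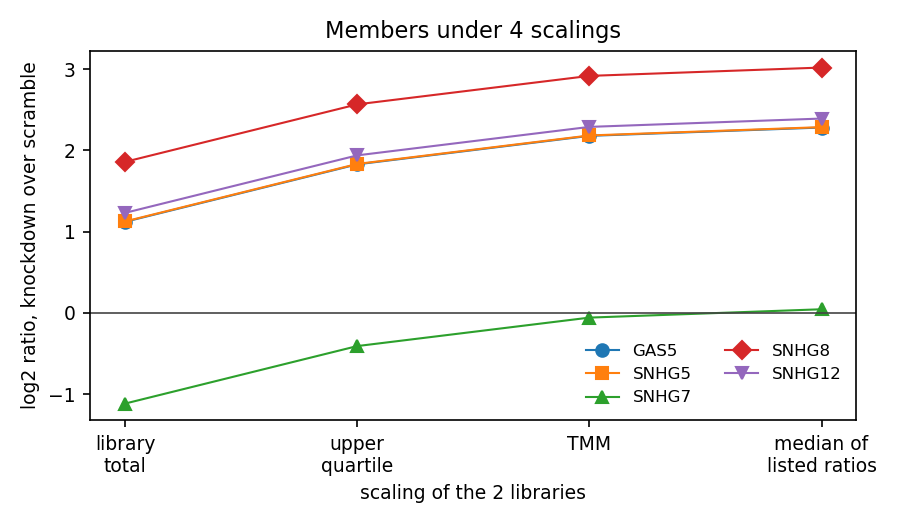
Log2 ratio (knockdown over scramble) of the 5 hosts with the libraries scaled to their totals, to the upper quartile, the trimmed mean (TMM) or the median ratio of the listed genes; lines join the values of a gene, and GAS5 lies under SNHG5. The order of the 5 is the same under each scaling by construction, and SNHG7 moves from -1.11 to 0.045 while the other 4 stay above 1.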

How the data were processed

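RNA of HT-29 cells was sequenced from 1 scramble and 1 GPR126 knockdown library. The authors deposited a whole-number read count per gene and library, per the file headers. The authors' column headed TPM is in RPM: each value equals the count over 1 library total, times 1000000, within 0.005, and a count of 0 was entered as 0.01. The authors' deposited log2 ratio, p-value and FDR complete the table; the p-values compare 2 libraries and were not used as evidence. No source used here gives the aligner, counter, strand setting, annotation or build. The 2007 listed genes hold 15.8% of scramble and 11.5% of knockdown reads.

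Folds were computed from counts scaled to library totals, with exact Clopper-Pearson intervals conditional on the summed count, and ratios between members by the conditional odds ratio. Log2 ratios had 0.5 reads added. No test between conditions was possible with 1 library per group. Of the identifiers, 2004 matched RefSeq (GRCh38.p14) by Entrez number, which also gave classes and spans; snoRNA and host strands came from GENCODE v29 where the symbol matched. Sequences are those of RefSeq promoter windows (GRCh38.p14) and GENCODE v29 transcripts (GRCh38). Members and lists were chosen with earlier results of these data known, and motifs after the sequences were seen. Named genes were all members, every listed gene of the noncoding-host, snoRNP and decay lists, and, of the protein-coding host, TOP and NMD-sensitive lists, the 4 largest ratios per direction and the 4 most abundant; the genes named for likeness were the 2 nearest per member. Some genes that this rule takes are not reported here. Other names were chosen after their values were seen. The interval calculation was tested on simulated Poisson counts. Alternatives covered pseudocount, scaling, fold limit and a floor of 5 RPM. Python 3.11.15, numpy 2.4.6, pandas 2.3.3, scipy 1.17.1, matplotlib 3.10.9 and edgeR 4.0.16 (TMM factors only) in R 4.3.3 were used.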

Additional observations from a re-analysis of the deposited data

How the results depend on the processing

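No paired analysis was possible because the groups hold 1 library each, which also means that none could be left out. With 0.05 or 5 reads added, or with the authors' deposited log2 ratio, all 5 hosts stayed inside their counting intervals, and their median was between 1.12 and 1.13. Scalings from the listed genes alone moved every ratio upward by construction, removing a log2 shift of -1.16 (median), -1.06 (TMM) or -0.71 (upper quartile), since most listed genes were lower. In that order, GAS5 was 2.28, 2.18 and 1.83, SNHG5 and the median of the 5 both 2.29, 2.18 and 1.83, SNHG8 3.02, 2.92 and 2.57, SNHG12 2.39, 2.29 and 1.94, and SNHG7 0.045, -0.058 and -0.41, so that SNHG7 alone of the 5 reversed, under the median. The genes at least 2-fold lower went from 1339 to 122, 158 and 301, and those 2-fold higher stayed at 667 or 668. A 4-fold limit, which no member passes, left 174 higher and 172 lower genes; a floor of 5 RPM left 615 and 1318. Depth limits SNHG8, with 35 scramble reads, and SNHG5 and SNHG7, whose intervals reach below 2-fold.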

Other observations

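Long noncoding RNAs as a class were mostly higher in the table. Of 26 listed genes that RefSeq classes as lncRNA 22 were higher (84.6%), against 637 of 1967 protein-coding genes (32.4%). Leaving out the 5 members, 18 of 21 were higher, and the median log2 ratio was 1.36. Leaving out the hosts ZFAS1 and SNHG32 as well, 16 of 19 were higher. LncRNAs had fewer reads, with a median of 41 in the scramble library against 151 for protein-coding genes. Under 200 summed reads, 14 of 17 lncRNAs and 44.1% of 799 protein-coding genes were higher. With 200 or more, 8 of 9 and 24.4% of 1168 were. Among these 9 lncRNAs, only ESRG, NEAT1 and UCA1 are not snoRNA hosts of the lists used. With the median listed ratio set to 0, 23 of 26 lncRNAs and 49.3% of protein-coding genes were above 0. These counts describe 2 libraries and a table of called genes.

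Among lncRNAs that host no snoRNA in the lists used, NEAT1, the scaffold of nuclear paraspeckles, had 1138 and 2931 reads (2.47-fold higher, 2.30 to 2.64); it was the 1 listed gene of 16 in a list of other lncRNAs. UCA1 had 112 and 385 reads (3.29-fold higher, 2.66 to 4.10), and HAR1A 4 and 27 (6.46-fold, 2.25 to 25.4). The lower ones beside SNHG7 were LINC00174, LINC00908 and TTC28-AS1, between 2.68-fold and 3.32-fold lower. These genes, NEAT1 apart, were chosen after their values were seen.

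The table held 1 snoRNA as a gene of its own, SNORA76 (now SNORA50C), with 319 and 156 reads (2.14-fold lower, 1.76 to 2.60). Of 18 genes of the mTOR and growth list 4 were listed, where 33.3% of all listed genes were higher. MYC (3.77-fold, 3.45 to 4.13) and DDIT4 (5.20-fold, 3.32 to 8.51) were higher. MTOR (2.49-fold, 2.05 to 3.03) and RPTOR (2.64-fold, 1.80 to 3.95) were lower. In the authors' deposited table the FDR of SNHG5, with 130 and 297 reads, is 0, whereas that of GAS5, with 4404 and 10007 reads and a like ratio, is 2.4e-10.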
